A study of Arabidopsis thaliana with 12 samples.

Results

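The genes described here are the 103 Arabidopsis thaliana genes whose transcripts had a lower ratio of dexamethasone (Dex) to mock on every array of the series, at 4, 12 and 72 h after treatment. They were selected on these ratios. A gene had to have a value on all 12 arrays, each below 0 on the log2 scale after centring, and a mean of -0.8 or less at each of the 3 times. Of the 13739 loci with a named probe, 9622 had all 12 values, and the 103 genes are 1.07% of those. Since Dex against mock chose them, their ratios are given as a description and carry no test. Tests are given for differences between times, which the selection bounded but did not compare, and for genes of chosen lists outside the set.

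Both the Dex-treated and the mock-treated plants carried the transgene 35S:HAN-GR, and their background was Landsberg erecta (Ler), so the controls held the transgene too. Inflorescences with flower buds of stages 1 to 9 were taken 4, 12 and 72 h after 10 µM Dex or mock. Each array hybridised RNA of Dex-treated plants together with RNA of mock-treated plants of the same time, on 4 arrays a time, which the labels call biological replicates. By the labels the dyes were swapped, with Dex RNA labelled Cy5 on 2 arrays of each time and Cy3 on the other 2. Plants treated with Dex but lacking the fusion are not part of the arrays used here, so a response to Dex itself cannot be told apart from a response to HAN-GR. The 35S promoter is active in most tissues, so HAN-GR was present outside the cells that normally express HAN. The labels give neither plant age nor whether the plants descend from 1 transformant or several, and a 0 h sample was not analysed here.

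HANABA TARANU (HAN) is a GATA-type zinc-finger transcription factor that helps to set the boundaries between the meristem and the organs of the flower. Fused to the hormone-binding domain of the glucocorticoid receptor (GR), it stays in the cytoplasm until Dex binds the receptor domain, whereupon the fusion enters the nucleus. The arrays measure transcript relative to mock and not the binding of HAN-GR to genes. In whole inflorescences fewer cells of a type and less RNA per cell cannot be told apart. Because each value is a ratio within an array, it gives no level, so marker genes cannot show which tissue was sampled and one gene's abundance cannot be set against another's. HAN itself is not among the named probes.

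The direction of the ratio is not stated in the sources used here. Dex over mock was assumed throughout. With the sign turned, all 103 genes would be higher on all 12 arrays and every difference below would change its sign. Values at 6.64 or -6.64 are limits of the deposited table and were treated as missing. With limits missing, pairs of arrays of a time correlated at 0 to 0.68 over all gene features. With limits kept, arrays of the same labelled dye correlated at 0.53 to 0.83 at 12 and 72 h, and those of opposite dye at -0.75 to -0.49. At 4 h arrays of the same labelled dye correlated at -0.82 to -0.81. Replicates 1 and 4 of that time correlated at 0.87 though their labelled dyes differ, as did replicates 2 and 3. The dye labels at 4 h thus do not match the values as those of the later times do, and the labels do not settle the direction over all probes. The blank spots sat mostly at 1 limit on each array. Their sign followed the labelled dye at 12 and 72 h, but not at 4 h, where it was negative on replicates 1 and 4 and positive on replicates 2 and 3. The rule put the 103 genes below 0 on every array, so that they are below 0 under both signs of the blank spots does not bear on the direction. The median over genes was -1.50 for the mean of the 6 arrays labelled with Dex in Cy5 and -1.34 for the 6 labelled with Dex in Cy3. Both groups, like the dye term of the fits below, rest on the labels, also at 4 h.

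One array stood apart. The median absolute log2 ratio over all features was 0.497 on 72 h replicate 3, against 0.201 to 0.277 on the other 11 arrays. Of the 103 genes, 29 had their highest value of all on that array, more than on any other array. The same count over all features is not given here, so it does not mark out the set. Without 72 h replicate 3 the same rule took 126 genes, of which 99 were among the 103. Some places in the set depended on single arrays, since leaving out 1 array kept between 98 and 103 of the 103 genes. The gene with the widest spread met the rule through a single value. AT1G34040, of the alliinase family, had -6.63, -0.32, -0.60 and -0.35 on the 4 arrays at 4 h, and replicate 1 is next to the lower limit. Without that array its 4 h mean was -0.43, so the gene would not meet the rule. The rule then took 102 genes, of which 99 were among the 103.

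The ratios were lowest at 12 h. As medians over the 103 genes, the mean log2 ratios came to -1.20 (4 h), -1.63 (12 h) and -1.29 (72 h), beside 0.0026, 0.012 and 0.0047 over all 18124 features tested. The selection bounded these medians, and the order of the 3 times was not part of it. The lowest of the 3 means was that of 4 h in 23 genes, of 12 h in 57 and of 72 h in 23, while 55 genes were least low at 4 h, 8 at 12 h and 40 at 72 h. The same counts over all features are not given here, so these alone do not mark out the set. More than 2-fold lower were 73 genes at 4 h, 99 at 12 h and 87 at 72 h, and more than 4-fold lower were 13, 29 and 18. Array by array, the genes had medians of -1.30, -1.15, -1.21 and -1.27 at 4 h, -1.46, -1.68, -1.73 and -1.66 at 12 h, and -1.31, -1.29, -1.17 and -1.61 at 72 h. All 4 medians at 12 h lay below all 4 at 4 h, whereas the medians at 72 h overlapped those of both other times.

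**Figure D1:**
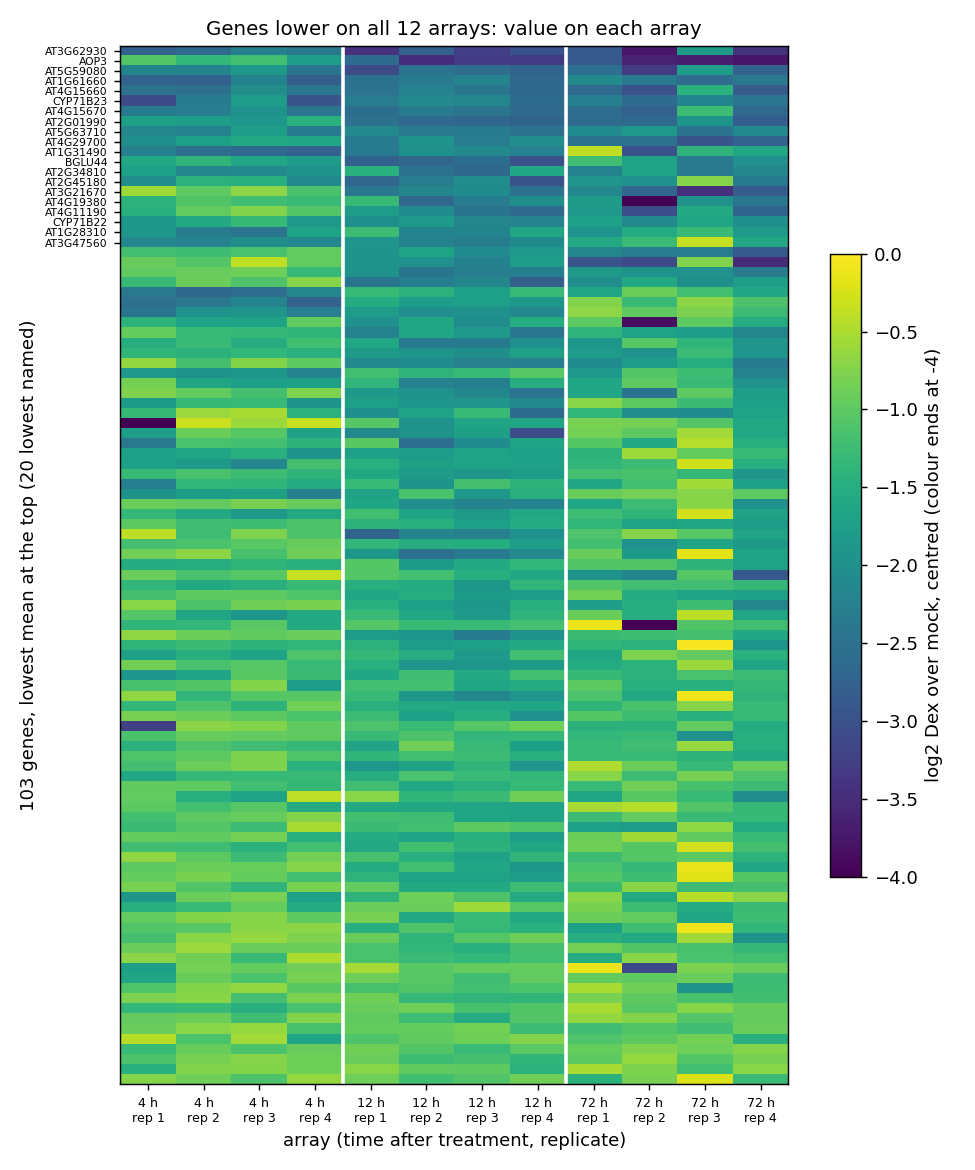
Each row is 1 of the 103 genes and each column 1 of the 12 arrays, in order of time and replicate, with colour for the centred log2 ratio of Dex over mock and the lowest mean over 12 arrays at the top. Every cell is below 0, the 12 h block is the darkest for 57 genes, and pale cells are most frequent on 72 h replicate 3, where 29 genes had their highest value.

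The spread between arrays of a time was slightly above that of all loci. The 103 genes had median SDs of 0.228 at 4 h, 0.206 at 12 h and 0.363 at 72 h, against 0.201, 0.181 and 0.341 over all 9622 loci with 12 values. In 23 genes the highest of the 12 values was -1 or lower, and in 26 it was above -0.5. Of the 103 genes, 77 had all 12 values at -0.5 or lower, and 91 did when 72 h replicate 3 was set aside. The overall means ran between -2.86 and -0.928. Apart from AT1G34040, with an SD over 12 arrays of 1.69, the widest were AOP3 (1.04) and AT1G67860 (1.02), and the narrowest was AT1G28260 (0.18).

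The lowest mean over 12 arrays belonged to a CC-type glutaredoxin gene. CC-type glutaredoxins are small redox proteins particular to land plants that bind TGA transcription factors, and the petal gene ROXY1 is one of them. AT3G62930 had log2 ratios of -2.74, -2.63, -2.23 and -2.39 at 4 h, -3.44, -2.78, -3.26 and -2.99 at 12 h, and -2.85, -3.75, -1.82 and -3.42 at 72 h. Only 72 h replicate 3 was above -2, and the means corresponded to 5.65-fold, 8.67-fold and 7.77-fold lower transcript in Dex-treated plants. The other glutaredoxin genes of the set lie near each other on chromosome 4.

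AT4G15660 had -2.51, -2.53, -2.02 and -2.43 at 4 h, -2.48, -2.23, -2.42 and -2.64 at 12 h, and -2.60, -3.01, -1.44 and -2.86 at 72 h. Its neighbour AT4G15670 differed from it by a median of 0.11 and by at most 0.27 on an array, and was 4.79-fold, 5.65-fold and 4.93-fold lower. On 72 h replicate 3 AT4G15670 was at -1.24, apart from -2.74 to -2.58 on the other 3 arrays of that time. AT4G15700 was less low, with -1.09, -1.04, -0.72 and -0.69 at 4 h, -1.50, -1.10, -1.31 and -1.45 at 12 h, and -1.72, -1.22, -0.09 and -1.36 at 72 h. These tandem genes are close copies, and signal shared between their probes by cross-hybridisation was not tested, so they may not be independent measurements.

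Outside the set, 11 CC-type glutaredoxin genes were tested for Dex against mock with limma and Benjamini-Hochberg adjustment over all features. At 4 h 4 of the 11 were lower and 0 higher, at 12 h 6 lower and 1 higher, and at 72 h 3 lower and 1 higher, where over all features 6.87% were lower and 4.19% higher at 4 h, 10.5% and 5.34% at 12 h, and 10.8% and 9.89% at 72 h. Their median log2 ratio was -0.51, -1.07 and 0.00. Among those that did not pass, AT1G06830 lay at -3.187 ± 0.145 at 4 h and -2.76 ± 0.30 at 12 h (limma adjusted p = 0.064 and 0.088). Its 72 h values spread widely (0.78 ± 3.61), and the fit shares its estimate of the spread over the times. Without 72 h replicate 2 it passed at 4 and 12 h (0.013 and 0.020), and without 72 h replicate 3 as well (0.0093 and 0.015). AT2G30540 fell furthest, to -4.79 ± 0.27 at 4 h (SD, n = 3), -3.67 ± 0.36 at 12 h and -4.07 ± 0.55 at 72 h (n = 4). It would meet the rule but for 1 missing value, as would AT4G15680 of the chromosome 4 group, at -2.63 ± 0.37, -2.66 ± 0.24 (n = 3) and -2.75 ± 0.92. The counts of lower genes include AT2G30540 and AT4G15680 at each time, so these counts are no independent check on the set. AT3G62960 passed at each time too, at -2.17 ± 0.47, -1.08 ± 0.57 and -0.85 ± 0.65, with limma adjusted p of 0.00024, 0.012 and 0.033.

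ROXY1, which shapes petal and anther development, lay at 0.14 ± 0.26 at 4 h, fell to -0.55 ± 0.24 at 12 h (limma adjusted p = 0.0082) and lay at -0.26 ± 0.10 at 72 h (n = 4 each). Its close relative ROXY2 fell at 12 h, to -1.07 ± 0.32 (adjusted p = 0.0066). AT5G11930 went the other way and rose to 1.32 ± 0.41 at 72 h (adjusted p = 0.00014). Some of these calls rested on single arrays. That of ROXY1 at 12 h was lost without 12 h replicate 4 (adjusted p 0.064), that of AT3G62960 at 12 h without 12 h replicates 1 or 3 (0.074 and 0.068) and at 72 h without 72 h replicates 1, 2 or 4 (0.099 to 0.12).

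**Figure D2:**
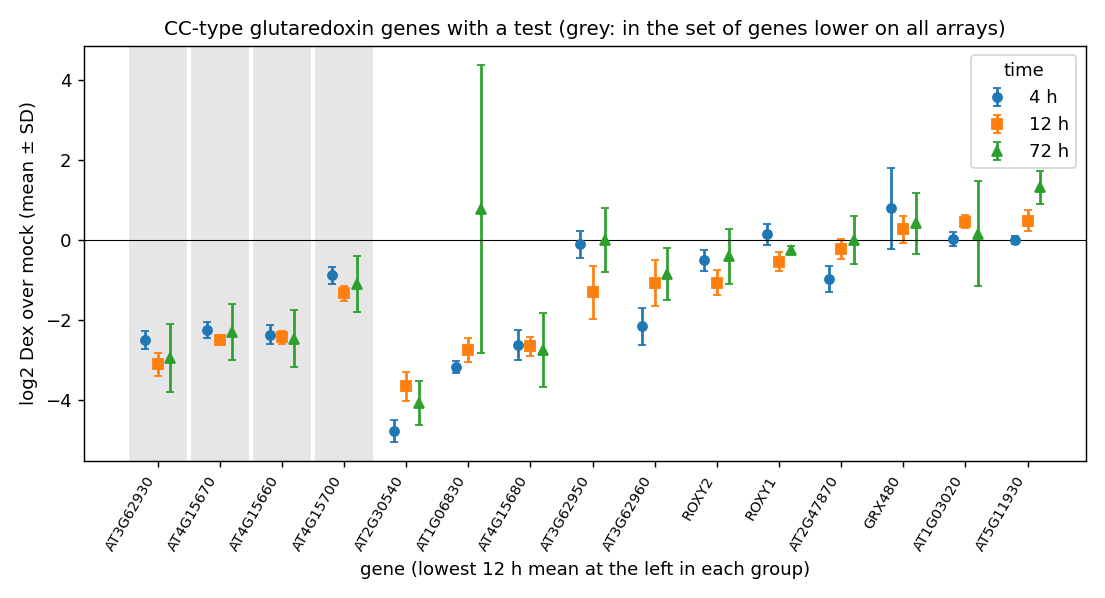
Mean log2 ratio of Dex over mock with SD over the arrays, at 4, 12 and 72 h, for the 15 CC-type glutaredoxin genes with a test. The means of the 4 genes of the set (grey) lie below 0 at all 3 times. So do those of AT2G30540, AT4G15680, AT3G62960, ROXY2 and AT2G47870 (-0.001 at 72 h), and AT5G11930 lies above 0 at 72 h, at 1.32.

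Of the 3 genes of glucosinolate metabolism in the set, AOP3 was among the lowest of all. Glucosinolates are sulphur-rich defence compounds of the cabbage family, and AOP3 is a dioxygenase that modifies the side chain of those made from methionine. AOP3 had log2 ratios of -1.08, -1.36, -1.21 and -1.76 at 4 h, -2.60, -3.48, -3.30 and -3.31 at 12 h, and -2.90, -3.62, -3.66 and -3.75 at 72 h. The values at 4 h did not overlap those of the later times, and transcript was 2.55-fold lower at 4 h, 9.02-fold at 12 h and 11.2-fold at 72 h. GSTU20, a glutathione transferase linked to glucosinolate synthesis, had -0.90, -0.96, -0.81 and -0.93 at 4 h, -1.64, -2.05, -2.21 and -2.24 at 12 h, and -1.64, -1.26, -0.71 and -1.94 at 72 h. GTR2, a glucosinolate transporter, was 2.30-fold, 3.10-fold and 1.79-fold lower.

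Of the 30 genes listed for aliphatic glucosinolate synthesis 6 were on the array, 5 were tested and 2 belong to the set, so most of the pathway was not measured. Of the 3 others, 2 were higher at some times and 1 was lower at 12 h. AT2G25450, a dioxygenase that also acts on glucosinolates, rose at each time, by 1.48 ± 0.42, 2.90 ± 0.37 and 1.67 ± 0.48 on the log2 scale (SD, n = 4; limma adjusted p = 0.00090, 9.1e-06 and 0.00031). AOP1, a relative of AOP3, rose by 0.46 ± 0.15 at 4 h and by 0.60 ± 0.37 at 72 h (adjusted p = 0.025 and 0.0041) and lay at 0.06 ± 0.11 at 12 h. The 4 h call for AOP1 was lost without 4 h replicates 1, 2 or 4 (adjusted p 0.11 to 0.12). AT2G31790, a glucosyltransferase of the pathway, fell to -0.81 ± 0.28 at 12 h (adjusted p = 0.00092).

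A run of cytochrome P450 genes on chromosome 3 belongs to the set. Cytochromes P450 of the CYP71 family oxidise many specialised metabolites. CYP71B21, CYP71B22 and CYP71B23 are successive genes. CYP71B23 had log2 ratios of -3.07, -2.36, -1.80 and -2.96 at 4 h, -2.30, -2.12, -2.16 and -2.58 at 12 h, and -2.28, -2.61, -2.20 and -2.43 at 72 h, which is 5.85-fold, 4.89-fold and 5.20-fold lower. Its values at 4 h spanned more than those at the later times. CYP71B22 had -1.89, -1.59, -1.32 and -1.83 at 4 h, -2.0, -1.83, -2.18 and -2.20 at 12 h, and -1.71, -2.12, -1.64 and -2.0 at 72 h, and CYP71B21 was 2.28-fold, 2.64-fold and 2.49-fold lower.

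The gene before the run, CYP71B20, passed the test as lower at each time, at -0.33 ± 0.10, -1.24 ± 0.23 and -0.50 ± 0.06 (SD, n = 4; limma adjusted p = 0.045, 1.1e-05 and 0.0034). CYP71B24, the second gene after CYP71B23, rose at each time, by 2.22 ± 0.26, 1.69 ± 0.36 and 0.94 ± 0.12 (adjusted p = 4.3e-06, 1.1e-05 and 0.00053). Farther along the same stretch CYP71B26 (1.09 ± 0.21; adjusted p = 0.0021) and CYP71B35 (0.72 ± 0.19; adjusted p = 0.00035) rose at 72 h. CYP71B37 fell at 4 and 12 h (adjusted p = 0.0037 and 0.00056) and lay at 0.02 ± 0.18 at 72 h. The calls of CYP71B genes outside the set were not checked against single arrays. Adjacent P450 genes resemble each other in sequence and could share signal, and the opposite directions within the stretch were measured on the same arrays.

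**Figure D3:**
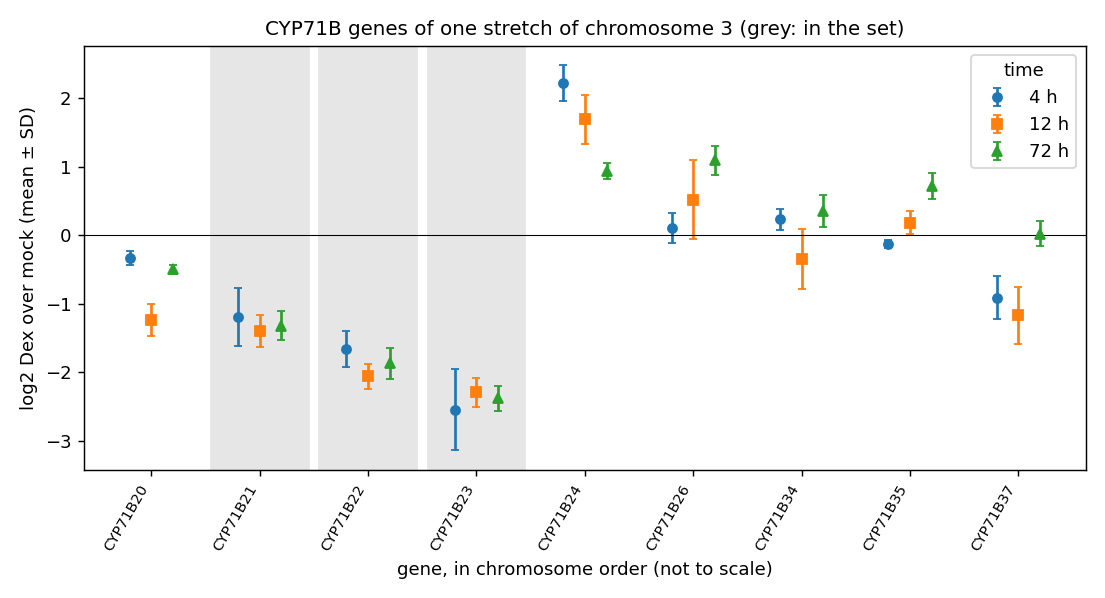
Mean log2 ratio of Dex over mock with SD over 4 arrays at 4, 12 and 72 h for 9 measured CYP71B genes of 1 stretch of chromosome 3, in chromosome order. The 3 adjacent genes of the set (grey) lie below -1 at all times, CYP71B20 beside them is less low, and CYP71B24 lies above 0 at all times, at 2.22 at 4 h.

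Transcription factor genes formed another group. AT1G61660, of the basic helix-loop-helix (bHLH) family, had log2 ratios of -2.73, -2.76, -2.21 and -2.82 at 4 h, -2.49, -2.36, -2.21 and -2.66 at 12 h, and -2.12, -2.35, -2.58 and -2.40 at 72 h. It was 6.19-fold lower at 4 h, the lowest mean of the set at that time, and 5.15-fold lower at 72 h. The bHLH genes AT2G40200, AT3G57800 and AT4G00870 were less low, with means over 12 arrays of -1.60, -1.23 and -1.05.

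Both Dof zinc-finger genes of the set were lowest at 4 h. AT2G28510 had -2.54, -2.42, -2.20 and -2.74 at 4 h, -1.52, -1.78, -1.75 and -1.86 at 12 h, and -0.75, -1.31, -0.70 and -1.11 at 72 h. The 3 times did not overlap, and the gene was 5.56-fold, 3.31-fold and 1.96-fold lower. AT1G28310 was 4.25-fold, 3.53-fold and 3.15-fold lower.

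Genes of hormone response, cell cycle and growth included ARR15, a type-A response regulator that cytokinin induces and that dampens cytokinin signalling. ARR15 had -1.73, -1.86, -2.15 and -1.18 at 4 h, -1.46, -1.72, -1.68 and -1.71 at 12 h, and -1.37, -1.25, -0.29 and -1.48 at 72 h. The weakest value was that of 72 h replicate 3. RR16, the only other measured gene of the 18 listed as cytokinin-induced, did not pass at any time and lay at -0.20 ± 0.39, -0.18 ± 0.28 and -0.21 ± 0.57. SIM, an inhibitor of cyclin-dependent kinases that acts in endoreduplication of leaf hairs, had -1.39, -1.28, -1.41 and -1.36 at 4 h, -1.43, -1.81, -1.72 and -1.55 at 12 h, and -1.38, -1.44, -0.04 and -1.90 at 72 h. Its value on 72 h replicate 3 was the one nearest 0 in the whole set.

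TUB5, a beta-tubulin gene, was 1.78-fold, 2.44-fold and 2.16-fold lower. iqd33, of the calmodulin-binding IQD family, was 1.92-fold, 2.70-fold and 2.27-fold lower. AT4G37810, which encodes a secreted peptide of the EPF-like family, was 3.0-fold, 2.98-fold and 2.22-fold lower, with -0.27 on 72 h replicate 3.

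Receptor kinases and cell wall enzymes were also present. Of the 3 leucine-rich repeat receptor kinase genes AT5G63710 was the lowest, at -2.15, -2.21, -1.76 and -2.37 at 4 h, -2.11, -2.39, -2.37 and -2.50 at 12 h, and -2.07, -1.84, -2.47 and -2.09 at 72 h. The 3 times overlapped, and transcript was 4.36-fold, 5.07-fold and 4.34-fold lower. AT2G23950 and AT1G17230 had means over 12 arrays of -1.43 and -1.21. The 5 cell wall enzyme genes had means between -1.67 and -1.06. They were the pectin methylesterase genes AT3G43270 and AT3G10720, the pectate lyase gene AT1G67750, the xyloglucan endotransglucosylase gene XTH32 and the beta-1,3-glucanase gene AT2G27500. XTH32 was 1.95-fold, 3.06-fold and 2.41-fold lower.

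Secreted and membrane proteins made up further pairs and single genes. AT2G45180, of the lipid-transfer protein type, had -2.03, -1.43, -1.50 and -2.09 at 4 h, -2.67, -2.30, -2.03 and -2.97 at 12 h, and -1.91, -1.97, -0.73 and -2.36 at 72 h. AT2G34810, of the berberine bridge enzyme type, was 3.96-fold, 4.16-fold and 4.30-fold lower. BGLU44, a beta-glucosidase, had -1.61, -1.38, -1.63 and -1.78 at 4 h, -2.76, -2.68, -2.55 and -3.0 at 12 h, and -1.22, -1.68, -2.40 and -1.98 at 72 h. The 12 h values of BGLU44 lay below all others.

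Among transporters, AT3G21670 (also named NPF6.4, of the nitrate and peptide transporter family) had -0.58, -1.0, -0.69 and -1.14 at 4 h, -2.39, -2.16, -2.06 and -2.51 at 12 h, and -2.15, -2.68, -3.46 and -2.84 at 72 h. Its ratio at 4 h lay apart from the later times, and transcript was 1.81-fold, 4.86-fold and 6.88-fold lower. OCT5, a carnitine transporter relative, was 3.03-fold, 3.76-fold and 2.27-fold lower, and AZG1, a purine transporter, was 1.85-fold, 2.27-fold and 1.84-fold lower. In redox metabolism ATMDAR2, a monodehydroascorbate reductase, was lowest at 4 h, at 2.47-fold, with 1.82-fold at 12 h and 2.31-fold at 72 h. ZW9, a TRAF-like gene, was likewise lowest at 4 h, at 3.91-fold, 2.37-fold and 3.03-fold.

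A small number of genes without a symbol completed the lowest 20. AT5G59080 had -2.19, -2.20, -1.84 and -2.45 at 4 h, -3.09, -2.48, -2.56 and -2.70 at 12 h, and -2.54, -3.30, -1.76 and -2.74 at 72 h. AT2G01990 was 3.27-fold, 6.2-fold and 5.60-fold lower, AT1G31490 5.84-fold, 4.51-fold and 3.02-fold, and AT4G19380 2.39-fold, 4.19-fold and 5.95-fold. At 72 h replicate 2 lowered the mean of AT4G19380, at -4.14, with -1.81, -1.94 and -2.40 on the others. In all, 7 genes had means of -2 or lower at each time.

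The responses of the genes at different times were compared with limma over all 18124 features, with the threshold at an adjusted p of 0.05. Between 12 h and 4 h 13 of the 103 genes differed, 12 with a lower and 1 with a higher ratio at 12 h. Over all features 1.40% were lower and 1.04% higher. At an unadjusted p under 0.05 there were 43 of the 103 genes and 12.9% of all features, and the median difference was -0.32, beside -0.0027 over all features. In 35 genes all 4 values at 12 h lay below all 4 at 4 h, and in 3 they lay above, beside 8.25% and 6.75% of the 16586 features with all 12 values.

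AOP3 differed most, by -1.82 (SE 0.25; limma adjusted p = 0.0073). CHAT, an acetyltransferase that makes the green-leaf volatile hexenyl acetate, had -1.29, -0.92, -1.11 and -0.72 at 4 h and -2.45, -2.27, -2.16 and -2.79 at 12 h, a difference of -1.41 (SE 0.19; adjusted p = 0.0058). Its values at 72 h, -2.03, -1.57, -2.01 and -1.78, lay between. The peroxidase gene AT4G37520 had -0.64, -1.18, -0.74 and -0.99 at 4 h and -2.08, -2.05, -2.26 and -2.27 at 12 h, a difference of -1.28 (SE 0.18; adjusted p = 0.0073).

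AT4G18970, of the GDSL lipase family, had -0.98, -0.93, -0.89 and -1.32 at 4 h and -1.96, -2.45, -2.28 and -2.27 at 12 h (difference -1.21, SE 0.16; limma adjusted p = 0.0051). AT5G44410, of the berberine bridge enzyme type, differed by -1.14 (SE 0.15; adjusted p = 0.0058), with -0.66 to -0.98 at 4 h and -1.81 to -2.34 at 12 h. In the opposite direction AT1G73740, a glycosyltransferase family gene, had -2.40, -2.67, -2.57 and -2.17 at 4 h and -1.29, -1.43, -1.74 and -1.31 at 12 h, a difference of 1.01 (SE 0.15; adjusted p = 0.0098). These 6 genes passed in each of the 12 fits that left out 1 array.

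A further 7 calls between 12 h and 4 h moved with single arrays. AT3G21670 (-1.43; limma adjusted p = 0.012) lost its call when 12 h replicate 3 or 4 was set aside (adjusted p 0.050 and 0.052). The subtilase gene ATSBT5.2 (-1.40; 0.022) did not pass without 4 h replicate 3 or any of the 12 h arrays (0.056 to 0.074), nor BGLU44 (-1.15; 0.018) without 4 h replicates 2 or 3 or 12 h replicates 2, 3 or 4 (0.052 to 0.076). GSTU20 (-1.13; 0.023) was lost without 4 h replicates 1, 2 or 3 or 12 h replicates 2, 3 or 4 (0.051 to 0.084) and AT2G01990 (-0.92; 0.028) without 4 h replicates 1, 2 or 4 or any 12 h array (0.065 to 0.11). TET5, a tetraspanin, (-0.74; 0.041) was lost without any of the 8 arrays compared or 72 h replicate 2 (0.050 to 0.14). AT1G21400, of branched-chain keto acid breakdown, (-0.77; 0.033) was lost without any of the 8 arrays compared (0.055 to 0.12). Of all 103 genes, 8 passed without 4 h replicate 2, 7 without 12 h replicate 2 or 3, 6 without 12 h replicate 4 and 22 without 72 h replicate 3, and between 9 and 18 without each of the other arrays.

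With the replicate number as a block 8 of the 13 genes passed. Same-numbered arrays of 4 and 12 h deviated from their group means together, with correlations of 0.18 to 0.32 in 4 of 4 pairs. Pairs of other numbers correlated at 0.19 to 0.30 where their blank spots had the same sign and at -0.33 to -0.18 where the signs were opposite.

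Between 72 h and 12 h 7 genes had a higher ratio at 72 h and 0 a lower one by limma, beside 2.74% and 1.40% of all features. At an unadjusted p under 0.05 there were 26 genes, against 18.9% of all features, and the median difference was 0.22, beside 0.026. In 18 genes all values at 72 h lay above all values at 12 h, and in 2 below, beside 7.58% and 5.13% of the features with all 12 values. AT1G66940, a protein kinase-like gene, had -2.45, -1.96, -1.93 and -2.30 at 4 h, -1.79, -2.04, -1.99 and -2.14 at 12 h, and -0.68, -1.0, -0.78 and -1.26 at 72 h. Its 72 h values lay apart from both earlier times, and the difference from 12 h was 1.06 (SE 0.17; limma adjusted p = 0.0096), passing whichever array was left out.

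The other 6 calls between 72 h and 12 h were each lost when single arrays were left out. They were ATSBT5.2 (1.15; adjusted p = 0.034), the alpha/beta hydrolase family gene AT3G47560 (0.94; 0.033), BGLU44 (0.93; 0.031), AT3G62630 (0.81; 0.041), AT2G28510 (0.76; 0.042) and AT5G44410 (0.67; 0.036). Each was lost without any 1 of the 12 h arrays. ATSBT5.2 was also lost without 72 h replicates 1, 2 or 3, BGLU44 without 72 h replicates 1 or 2 or 4 h replicates 2 or 4, and AT3G47560 without 72 h replicate 4 or 4 h replicate 2. AT3G62630 was also lost without 72 h replicates 1, 2 or 4 or 4 h replicates 2 or 4, AT2G28510 without 72 h replicates 1, 3 or 4 or 4 h replicates 1 or 2, and AT5G44410 without any 72 h array or 4 h replicates 2 or 4. The adjusted p of the lost calls lay between 0.051 and 0.14. Of all 103 genes, 1 passed without any 1 of the 12 h arrays, 2 without 4 h replicate 2, 3 without 72 h replicate 1 and 4 without 72 h replicate 4, and 5 to 7 without each of the other arrays.

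Between 72 h and 4 h 18 genes differed, 12 with a lower and 6 with a higher ratio at 72 h, beside 3.56% and 4.99% of all features. At an unadjusted p under 0.05 there were 35 genes, against 22.6% of all features, and the median difference was -0.12, beside 0.0016. In 17 genes all values at 72 h lay below all values at 4 h, and in 9 above, beside 6.66% and 8.78% of the features with all 12 values. The balance depended on the scaling, since with the arrays scaled to equal median absolute deviations 12 genes passed, 8 of them among the 18, with a lower ratio in 2 and a higher one in 10. The lower ones included AOP3, by -2.13 (limma adjusted p = 0.00092), AT3G21670, by -1.93 (adjusted p = 0.00074), and TET5. TET5 had -1.21, -1.25, -1.15 and -0.96 at 4 h, -1.93, -1.68, -2.07 and -1.85 at 12 h, and -2.16, -2.31, -2.32 and -2.86 at 72 h, a difference of -1.27 (adjusted p = 0.0012). The 3 times did not overlap in TET5.

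AT4G29700, of the alkaline phosphatase-like type, had -2.0, -1.73, -1.59 and -1.64 at 4 h and -2.47, -2.49, -2.97 and -2.74 at 72 h (difference -0.93; limma adjusted p = 0.0063). AT4G37520 (-1.04; adjusted p = 0.0058) and AT4G18970 (-0.99; 0.0039) differed as well. Those with the higher ratio at 72 h were led by AT2G28510, by 1.51 (adjusted p = 0.00078), followed by AT1G66940 (1.23; 0.0020), AT1G73740 (1.11; 0.0018) and AT2G27500 (1.06; 0.0053). AT2G27500, the beta-1,3-glucanase gene, had -1.95, -1.78, -1.73 and -2.26 at 4 h and -0.93, -0.83, -0.73 and -0.99 at 72 h. These 10 genes passed in each of the 12 fits that left out 1 array. With equal median absolute deviations the differences of AOP3 and AT3G21670 passed at -1.45 and -1.35 (limma adjusted p = 0.048 and 0.012), and those of the 4 genes with the higher ratio passed too. TET5 (-0.79; adjusted p = 0.14), AT4G18970 (-0.59; 0.18), AT4G37520 (-0.71; 0.17) and AT4G29700 (-0.27; 0.55) did not pass in that fit.

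**Figure D4:**
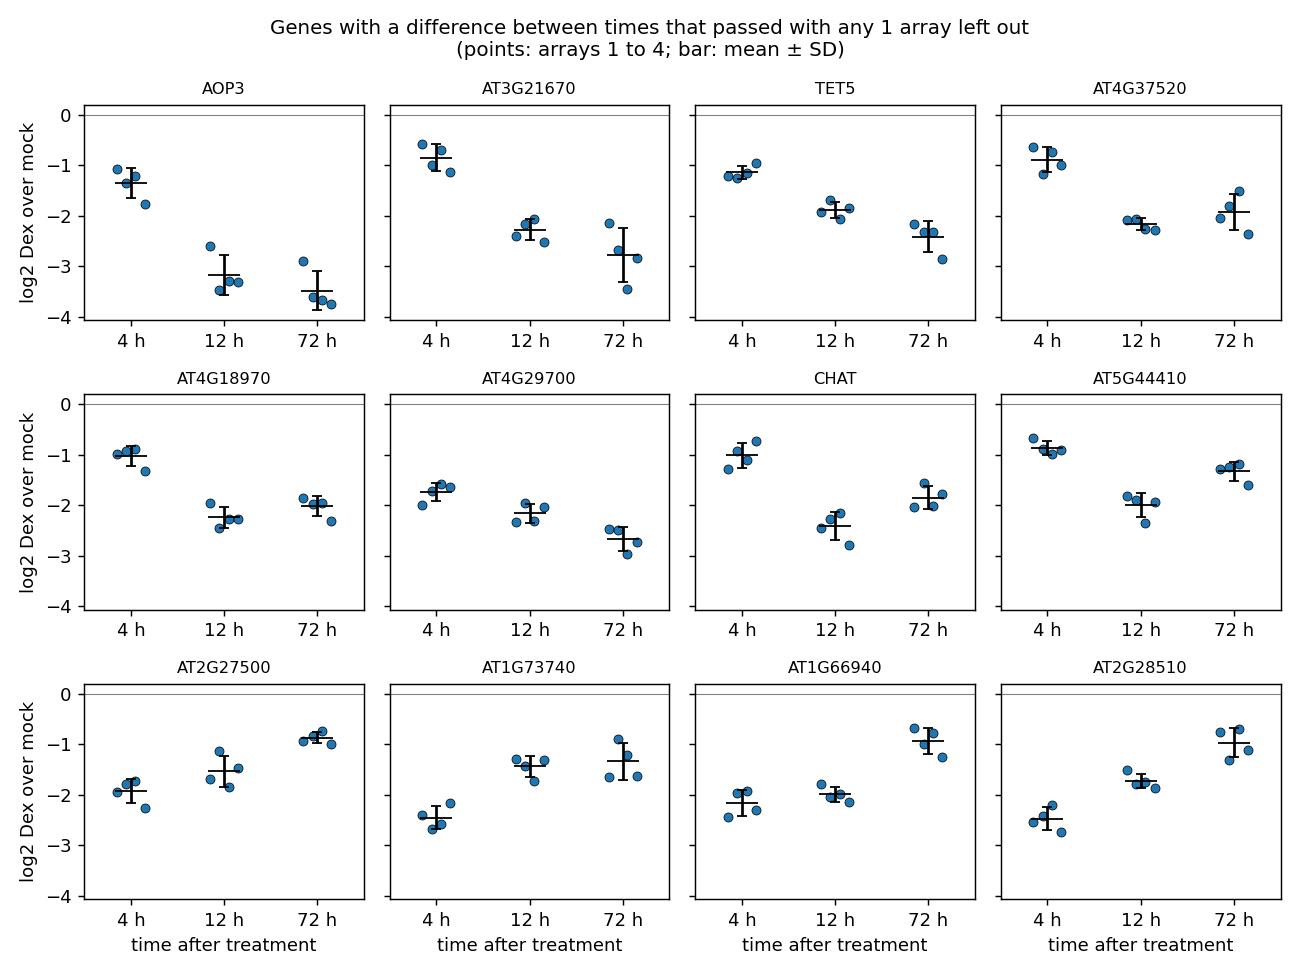
Log2 ratios of Dex over mock on the 4 arrays of each time (points) with mean and SD (bars) for 12 of the 13 genes with at least 1 difference between times that passed in all 12 fits with 1 array left out (AT1G21400 is not drawn). AOP3, AT3G21670, TET5 and AT4G29700 are lower later, CHAT and AT5G44410 are lowest at 12 h, and the bottom row holds the 4 genes that are lowest at 4 h.

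Of the 8 remaining calls between 72 h and 4 h, all but that of AT1G21400 moved with single arrays. AT3G47560 (0.93; limma adjusted p = 0.019) lost its call when 4 h replicate 3 or 4 was set aside (adjusted p 0.061 at most), CHAT (-0.84; 0.020) without 4 h replicates 2 or 4 or 72 h replicates 1 or 4 (0.062 at most), and AT2G01990 (-0.77; 0.023) without 4 h replicates 1, 2 or 4 or 72 h replicates 1, 2 or 4 (0.074 at most). The flavin monooxygenase gene FMO (0.64; 0.042) was lost without any array but 72 h replicate 1 (0.11 at most). AT1G67860 (-1.75; 0.034) and AT5G40980 (-1.16; 0.045) were lost without any array but 72 h replicate 3 (0.099 and 0.13 at most). AT4G11190, a dirigent protein gene, (-1.24; 0.045) was lost without any array but 72 h replicates 1 and 3 (0.12 at most). AT1G21400 differed by -0.80 (adjusted p = 0.011) and passed whichever array was left out. It was named after its values were seen. With equal median absolute deviations the differences of AT1G21400 (-0.51; adjusted p = 0.25), CHAT (-0.40; 0.36), AT2G01990 (-0.24; 0.70), AT1G67860 (-1.50; 0.092), AT4G11190 (-0.84; 0.28) and AT5G40980 (-0.86; 0.24) did not pass. Of all 103 genes, 11 passed without 4 h replicate 4, 22 without 72 h replicate 3, and 12 to 17 without each of the other arrays.

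The same genes recurred across these comparisons, which share arrays. In 8 genes the ratio was lower both at 12 h and at 72 h than at 4 h, in 3 it was higher at 72 h than at both earlier times, and in 3 (BGLU44, ATSBT5.2 and AT5G44410) it was lower at 12 h than at 4 h and higher at 72 h than at 12 h. In all 23 genes passed for at least 1 difference, 0 for all 3, and 80 for none. With quantile normalisation between arrays 0 of the 13 calls between 12 h and 4 h, 0 of the 7 between 72 h and 12 h and 2 of the 18 between 72 h and 4 h were made, those of AT2G28510 and AT3G21670, while the named differences kept their sign. With limit values kept 7, 1 and 10 of the calls were made. A gene that did not pass is not shown to be equal at the times compared.

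**Figure D5:**
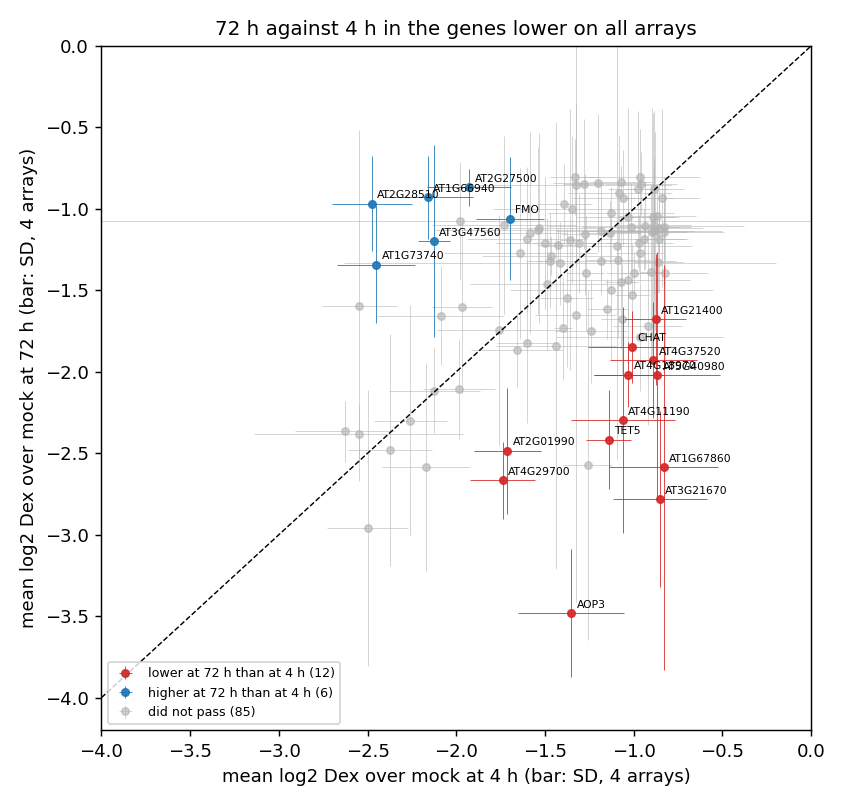
Mean log2 ratio of Dex over mock at 72 h (vertical) against 4 h (horizontal) for the 103 genes, with SD over 4 arrays as bars, some of which run past the axes, and the line of equal ratios dashed. The 12 genes lower at 72 h lie below the line, down to AOP3 at -3.48, and the 6 genes higher at 72 h lie above it.

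Genes of chosen families, pathways and cell markers were followed in 12 lists of 196 loci, of which 50 outside the set were tested. At 4 h 4 were higher and 13 lower, at 12 h 7 and 22, and at 72 h 10 and 15, beside the 4.19% and 6.87%, 5.34% and 10.5%, and 9.89% and 10.8% of all features given above. Most of the lists hold no gene of the set, and they were chosen with earlier results of these data known. The lower counts include AT2G30540, AT4G15680, AT3G11680 and AT2G43620, which met the rule but for 1 missing value. The counts are therefore no independent check on the set. Of the 4 tested beta-glucosidases listed with BGLU44, which lie on other chromosomes, 2, 3 and 3 were higher at 4, 12 and 72 h and 0 lower. BGLU45 rose by 1.09 ± 0.29, 1.92 ± 0.48 and 1.37 ± 0.32 at 4, 12 and 72 h (SD, n = 4; limma adjusted p = 0.0019, 3.3e-05 and 0.00034) and BGLU46 by 1.12 ± 0.37, 1.08 ± 0.21 and 0.70 ± 0.09 (0.00028, 0.00025 and 0.0035). BGLU47 rose by 3.33 ± 0.49 at 12 h and by 0.57 ± 0.17 at 72 h (2.0e-06 and 0.031), and the call at 72 h was lost without 72 h replicates 2, 3 or 4 (adjusted p 0.070 to 0.12). BGLU47 lay at 0.26 ± 0.27 at 4 h (n = 3) and BGLU42 at -0.22 ± 0.04, 0.09 ± 0.07 and 0.00 ± 0.14, and these did not pass (adjusted p 0.082 to 1). Both BGLU45 and BGLU46 act on the glucosides of lignin precursors.

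Of the 8 tested genes of the aluminium-activated malate transporter family 0 were higher, and 2, 3 and 3 were lower at 4, 12 and 72 h. AT3G11680 fell to -2.98 ± 0.13, -2.77 ± 0.09 and -3.15 ± 0.33 (n = 4, 4 and 3), and would belong to the set but for 1 missing value. AT1G25480 fell at each time as well, to -0.78 ± 0.38, -0.84 ± 0.22 and -1.06 ± 0.24 (limma adjusted p = 0.0041, 0.0019 and 0.00045). Of the 7 major latex protein-like genes 1, 2 and 2 were lower and 0, 0 and 1 higher. AT4G23670 fell to -0.79 ± 0.27, -2.62 ± 0.41 and -3.88 ± 0.63, just outside the limit at 4 h. Its 4 h call (adjusted p = 0.037) was lost without any of the 4 h arrays, 12 h replicates 2 or 3 or 72 h replicates 1 or 4 (0.051 to 0.15).

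Of 5 class IV chitinase genes AT2G43620 fell to -3.14 ± 0.21, -1.57 ± 0.40 (n = 3) and -1.09 ± 0.79, while CHI rose by 0.82 ± 0.14 and 1.44 ± 0.83 and AT2G43590 by 1.51 ± 0.39 and 1.75 ± 0.76 at 12 and 72 h. The 12 h call of CHI (limma adjusted p = 0.025) was lost without 12 h replicates 2, 3 or 4 (0.087 to 0.14). Both purine permease genes tested were lower at 4 and 12 h. PUP18 lay at -1.18 ± 0.26 and -1.55 ± 0.35 there and was higher at 72 h, at 1.88 ± 0.56 (adjusted p = 9.7e-06), while AT4G18205 lay at -0.62 ± 0.32, -0.67 ± 0.15 and -0.57 ± 0.28. The nitrate response list had 1 tested gene, AT1G68670, at -0.52 ± 0.12, -0.53 ± 0.37 and -0.16 ± 0.24, lower at 4 and 12 h (adjusted p = 0.035 and 0.025). Its 4 h call was lost without any of the 4 h arrays, 12 h replicates 3 or 4 or 72 h replicate 4 (0.051 to 0.15), and its 12 h call without 12 h replicates 1, 3 or 4 (0.067 to 0.14). AT4G18205 lost its 4 h call (0.015) without 4 h replicates 1 or 4 (0.078 and 0.095) and its 72 h call (0.034) without 4 h replicate 2, 12 h replicates 2, 3 or 4, or 72 h replicates 1 or 4 (0.051 to 0.18).

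Markers of particular cells were lower at some times. Of the 8 listed organ polarity and outgrowth genes 3 were tested, and YAB3 and JAG were lower at all 3 times and INO at 72 h. YAB3, a YABBY gene of the abaxial side of organs, lay at -0.61 ± 0.14, -1.05 ± 0.13 and -0.97 ± 0.37, and JAG, which promotes organ growth, at -0.82 ± 0.11, -0.90 ± 0.17 and -0.76 ± 0.60 (n = 4). The 4 h calls of both were lost without 4 h replicates 3 or 4 (adjusted p 0.056 to 0.063), and the 72 h call of JAG without 72 h replicates 1 or 4 (0.057 and 0.062). Of the 12 listed tapetum genes 2 were tested, and 0, 1 and 2 of them were lower at 4, 12 and 72 h. Of the 17 listed light-harvesting genes 3 were tested, and 0, 3 and 0 of them were lower. With the dye read from the blank spots, LHB1B2 (-0.71) and LHCB4.1 (-0.48) were lower at 72 h too (limma adjusted p = 0.0082 and 0.0066). The light-harvesting genes lay at -1.10 to -1.04 at 12 h, the time at which the 103 genes were lowest, with limma adjusted p of 0.0028 to 0.036. The call of LHCB4.1 was lost without 12 h replicates 1, 2 or 4 (0.072 to 0.080), and that of LHB1B2 without these or 4 h replicates 2 or 4 (0.050 to 0.18). The tapetum gene AMS, at -0.36 ± 0.06 at 12 h, lost its call (0.018) without 12 h replicates 1, 2 or 3 (0.056 to 0.12). Their part in the ratios of the set was not tested.

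By position, 35 of the 103 genes lie on chromosome 1, 11 on chromosome 2, 23 on chromosome 3, 17 on chromosome 4 and 17 on chromosome 5. This is 34%, 10.7%, 22.3%, 16.5% and 16.5%, against 25.9%, 14.9%, 21.6%, 14.5% and 23.1% of all loci with 12 values. In 7 genes the next protein-coding gene on a side also belongs to the set, namely CYP71B21 to CYP71B23, AT4G15660 and AT4G15670, and AT1G67900 and AT1G67910. Of 78 other next genes that were tested, 5, 7 and 16 were lower at 4, 12 and 72 h, which is 6.41%, 8.97% and 20.5%, beside 6.87%, 10.5% and 10.8% of all features, and 2, 3 and 5 were higher. The median log2 ratio of these neighbours was -0.04, -0.05 and 0.00. The median gene length was 2003 bp in the set and 2204 bp over all loci with 12 values.

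The limit of -0.8 divides a continuous range. Just inside were AT1G69910, with a least low time mean of -0.80, AT5G50150 (-0.81), AT5G03120 (-0.82), AT1G16750 (-0.83) and AT1G67860 (-0.83). Just outside were UGT76E11 (-0.79), AT4G23670 (-0.79), AT1G13680 (-0.78), AT5G35740 (-0.78) and AT1G19450 (-0.78). In 411 loci all 12 values were below 0, and in 276 all were above 0. The mirrored rule, with all values above 0 and means of 0.8 or more, took 27 loci. Of 6964 probes without a named gene and with all 12 values, 122 met the rule and 30 the mirrored one. A further 13 loci met the rule but for 1 missing value a time. Among them were, beside the glutaredoxin, malate transporter and chitinase genes above, AT5G50130 at -3.27, -2.36 and -2.04, AT4G04690 at -2.31, -2.42 and -1.97, and AT5G62340 at -1.83, -2.33 and -2.01.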

How the data were processed

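RNA of Dex-treated and mock-treated inflorescences was co-hybridised to 12 two-colour oligonucleotide arrays. Per the labels' protocols, RNA was amplified by in vitro transcription before dye coupling. The authors deposited log2 ratios, 1 per probe and array. Background correction, normalization, centring and direction are not stated in the labels or file headers. The base was read from the limits of 6.64 and -6.64. Array medians before centring were -0.185 to 0.069. Between 9.43% and 17.2% of the values of an array were at a limit. Ratios hold no signal over background, and the number of arrays limits the precision.

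The table held 26540 rows, of which 450 controls were left out. Of 26090 gene probes 13912 were named through the gene ID of the platform annotation and the TAIR10.1 gene table and 42 through a locus name, giving 13739 loci, and 12136 were unnamed here. Probes of a locus were averaged. In the set 2 genes had 2 probes, with identical values. All value columns were matched to samples (0 unmapped). Features with values on at least 3 of 4 arrays at each time were tested. The median over these probes was subtracted from each array.

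A mean per time and a term for the labelled dye were fitted to all 12 arrays with limma 3.58.1 (lmFit and eBayes, R 4.3.3), after tests on simulated data. P-values are two-sided and Benjamini-Hochberg adjusted. Intervals are SD over arrays or SE of the fit. P-values measure the spread between these arrays.

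The members, the lists, the families and the tests were chosen with earlier results of these data known. Genes were named by a rule: members with a symbol or on a list, the 20 lowest, the 3 widest and 3 narrowest, those that differed between times (10 a comparison and direction), and those nearest the limit. Members named for their family only, AT1G21400 and loci missing 1 value were added after their values were seen. Roles of genes without a symbol are general knowledge of the locus and not in the tables. Sequences were not used here. Chromosome, gene order and gene length were taken from the gene table.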

Additional observations from a re-analysis of the deposited data

Results flagged for a closer look

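In 5 of 165 groups of 4 arrays, formed by the 55 named genes at 3 times, 1 array lay far from the other 3 by Dixon's test. Chance flags about 1 in 20 groups. At 4 h TUB5 was at -0.60 on replicate 2, with -0.92 to -0.90 on the others, AT1G34040 at -6.63 on replicate 1, with -0.60 to -0.32, and AT1G61660 at -2.21 on replicate 3, with -2.82 to -2.73. At 72 h AOP3 was at -2.90 on replicate 1, with -3.75 to -3.62, and AT4G15670 at -1.24 on replicate 3, with -2.74 to -2.58. Of these only AT1G34040 would leave the set without the array in question, and the difference of AOP3 between 72 h and 4 h, -2.13, passed without it.

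The ratio of 38 pairs of gene and comparison differed between times by the limma test of the difference itself. Differences at 12 h minus 4 h were -1.82 for AOP3, -1.43 for AT3G21670, -1.41 for CHAT, -1.40 for ATSBT5.2, -1.28 for AT4G37520, -1.21 for AT4G18970 and -1.15 for BGLU44. They were -1.14 for AT5G44410, -1.13 for GSTU20, -0.92 for AT2G01990, -0.77 for AT1G21400, -0.74 for TET5 and 1.01 for AT1G73740. At 72 h minus 12 h they were 1.15 for ATSBT5.2, 1.06 for AT1G66940, 0.94 for AT3G47560, 0.93 for BGLU44, 0.81 for AT3G62630, 0.76 for AT2G28510 and 0.67 for AT5G44410.

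At 72 h minus 4 h the lower ones were -2.13 for AOP3, -1.93 for AT3G21670, -1.75 for AT1G67860, -1.27 for TET5, -1.24 for AT4G11190, -1.16 for AT5G40980, -1.04 for AT4G37520, -0.99 for AT4G18970, -0.93 for AT4G29700, -0.84 for CHAT, -0.80 for AT1G21400 and -0.77 for AT2G01990. The higher ones were 1.51 for AT2G28510, 1.23 for AT1G66940, 1.11 for AT1G73740, 1.06 for AT2G27500, 0.93 for AT3G47560 and 0.64 for FMO. Of the 38, 18 passed in each of the 12 fits that left out 1 array, and the arrays that the other 20 depended on are given with each in the results.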

How the results depend on the processing

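The rule took 103 genes, 60 of them with a mean limit of -1.0. It took 105 to 130 under the 6 other settings tried and 101 to 126 with 1 array left out. Counts of genes that differed between times depended on the settings. For 12 h against 4 h (13), 72 h against 12 h (7) and 72 h against 4 h (18), they were 24, 1 and 10 with only the 8 arrays compared, 1, 0 and 3 with quantile normalisation, 53, 26 and 39 with array weights (3098, 2811 and 3279 of 18124 features, against 441, 750 and 1550 in the fit reported), 7, 1 and 10 with limit values kept, and 6, 1 and 10 at adjusted p under 0.01. Equal median absolute deviations gave 13 for 72 h against 12 h and 12 (2 lower, 10 higher) for 72 h against 4 h, and the dye read from the blank spots, a setting chosen after seeing the data, gave 20 for 12 h against 4 h. With 1 array left out the counts ran between 6 and 22, 1 and 7, and 11 and 22. With a replicate block they were 8, 2 and 13. Over all times same-numbered arrays deviated together in 4 of 12 pairs (correlations over 0.1, within -0.29 to 0.32), all 4 between 4 and 12 h. The blank spots of same-numbered arrays had the same sign at 4 and 12 h and the opposite sign at 72 h. The correlations followed that sign, so they cannot show at any time whether the numbers pair arrays. Why these counts moved was not tested. Counts of listed genes outside the set (17, 29 and 25 at 4, 12 and 72 h) ran between 11 and 20, 23 and 31, and 21 and 26 with 1 array left out, and were 15, 28 and 23 with the block. No mean ratio or difference of a named gene of the set changed sign under the settings tried. For the mean ratios the rule had put all 12 values below 0, so leaving out an array could not change their sign. Of the settings for single named differences 578 kept the call and 250 lost it, and of those for mean ratios 437 moved by less than 1 SD and 58 by more.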
